A study of Mus musculus with 12 samples.

Results

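The wild-type (WT) looping heart of the mouse was described from 3 of the 12 arrays in the study, the ones whose titles name WT hearts of embryonic stage E8.75. Each array carried amplified, biotin-labelled total RNA from dissected hearts, and the titles call the 3 arrays biological replicates. Strain, litter and the number of hearts pooled per array are not given in the labels, so the spread between arrays may hold technical as well as biological differences. The study's other 9 arrays are of hearts that lack Nkx2-5, Tbx5 or both, and their levels are not described here. They entered 1 alternative alone, in which the probe set of a gene was chosen over all 12 arrays.

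At this stage the heart is a beating tube that bends to the right. It has an outer layer of muscle, an inner layer of endocardium and, between them, a swollen matrix called the cardiac jelly. Chamber muscle balloons out of the outer curve and switches on peptides such as atrial natriuretic factor, while progenitors of the second heart field are still being added at both ends. Primitive red cells from the yolk sac pass through the lumen and so can enter a dissected heart.

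Signal was read as log2 expression per probe set, and a gene with several probe sets was represented by the brightest. This gave 19938 genes, ranked within each array with rank 1 the brightest. The signal of a probe set depends on how well its probes bind as well as on the amount of RNA, so an order of genes by signal is not an order by number of transcripts. Over all genes the median level was 8.34 and the median SD between the 3 arrays was 0.13. In place of a detection call, each array's 95th percentile among 1203 odorant, vomeronasal and trace amine receptor genes served as a floor, called the receptor reference, which lay at 7.71 on replicate 1, 7.63 on replicate 2 and 7.75 on replicate 3. A gene was counted as bright when it lay among the brightest 10% on every array, as 8.92% of all genes did, and as above the reference when it did so on every array, as 62.3% of all genes did. Pearson correlations across genes, which are not independent replicates, were 0.987, 0.991 and 0.989 for the 3 pairs of arrays. With 1 group there was nothing to test, and values are given as a description.

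The tissue label was checked against muscle markers first, and all 4 were bright. Actc1, the cardiac actin of the thin filament, had log2 levels of 14.13, 14.09 and 14.10 on replicates 1, 2 and 3 and ranked 3 of 19938 by its mean. Tnnt2, which anchors the troponin complex to tropomyosin, read 14.08, 13.98 and 14.05 and ranked 8. Myl7, the atrial regulatory light chain of myosin, read 13.90, 13.89 and 13.85 and ranked 28. Each of these genes kept nearly the same level on the 3 arrays. Nppa, which encodes atrial natriuretic factor, read 13.29, 13.52 and 13.29 and ranked 117, with replicate 2 the highest and an SD of 0.13. The median SD was 0.13 over all genes but 0.05 over the brightest 1% of genes, where spread was small in general.

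The 250 bases before the start of each of these 4 genes are shown because they are the control regions of the genes that mark the tissue. They come from RefSeq on GRCm38.p6, are written 5′ to 3′ in the direction of transcription, and end at the base before the annotated start. Capitals mark 5 motifs searched on both strands. These are the CArG box that serum response factor binds, CATTCC of TEAD factors, AGATAA of GATA factors, AAGTG of NK2 homeodomain factors, and TATAAA.
Myl7, chr11:5898783-5899032, minus strand: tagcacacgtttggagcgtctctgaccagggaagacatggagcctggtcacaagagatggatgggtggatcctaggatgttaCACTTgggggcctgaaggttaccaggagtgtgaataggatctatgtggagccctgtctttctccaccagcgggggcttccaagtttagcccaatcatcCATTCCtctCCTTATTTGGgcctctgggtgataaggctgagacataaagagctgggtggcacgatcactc
Nppa, chr4:148000472-148000721, plus strand: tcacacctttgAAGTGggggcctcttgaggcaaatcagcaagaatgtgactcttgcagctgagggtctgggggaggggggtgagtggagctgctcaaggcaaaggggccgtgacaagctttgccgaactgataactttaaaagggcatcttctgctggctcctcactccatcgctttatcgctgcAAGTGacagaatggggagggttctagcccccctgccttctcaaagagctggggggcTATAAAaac
Tnnt2, chr1:135836084-135836333, plus strand: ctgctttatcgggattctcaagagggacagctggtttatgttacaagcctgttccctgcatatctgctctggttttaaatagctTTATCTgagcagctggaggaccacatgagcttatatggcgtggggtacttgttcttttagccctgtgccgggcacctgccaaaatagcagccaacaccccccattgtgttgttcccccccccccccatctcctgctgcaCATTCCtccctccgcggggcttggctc
Actc1, chr2:114052876-114053125, minus strand: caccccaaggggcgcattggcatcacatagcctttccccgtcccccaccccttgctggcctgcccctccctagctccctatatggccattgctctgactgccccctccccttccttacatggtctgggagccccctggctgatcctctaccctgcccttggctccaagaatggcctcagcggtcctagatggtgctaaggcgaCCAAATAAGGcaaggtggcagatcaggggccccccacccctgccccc

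A CArG box lay 61 bases before the start of Myl7 and 47 bases before that of Actc1. CATTCC was found 70 bases before the start of Myl7 and 27 bases before that of Tnnt2, which has 2 annotated starts, the one farthest upstream being shown. Nppa held TATAAA at 9 bases and AAGTG at 239 and 65 bases. The genes of the thick filament, thin filament and Z-disc had 55 promoters from 40 genes, so promoters of 1 gene may overlap and are not independent. Of the 55 promoters, 10 (18.2%) held a CArG box, against 482 of the 32851 promoters in the table (1.47%). CATTCC stood in 27.3% of those muscle promoters and 12.6% of all, and AGATAA in 21.8% and 9.99%. AAGTG stood in 36.4% and 40.7%, and TATAAA in 7.27% and 12.4%. Promoters of ribosomal protein genes held a CArG box in 1 of 59 cases (1.69%). These matches describe letters in a window and show neither binding nor use, and a promoter without a match may hold the site elsewhere.

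Genes for making protein and for contraction stood among the brightest of the looping heart. Eef1a1, an elongation factor of translation, ranked first at 14.28 ± 0.01 (SD, n = 3). Besides it, the 20 brightest held the contractile genes Actc1, Myl4, Tnnt2 and Myl2 and 10 ribosomal protein genes. They also held the superoxide dismutase Sod1, the cytochrome oxidase subunit Cox6c, the actin-binding Tmsb10 and the splicing factor Srsf3. Srsf3 read 13.97 on its brightest probe set and 11.80 on its dimmest, and the ribosomal protein gene Rpl23 14.04 and 12.66. Rank 2 went to Baiap2l1 at 14.25, but that probe set lists 0 of the RefSeq transcripts of the gene and another probe set of the gene read 9.27, so the value may belong to another RNA. The brightest 1% comprised 199 genes with means from 13.08 to 14.28, a range of only 1.20 log2 units. Of these, 44 were ribosomal protein genes, 21 belonged to the respiratory chain and ATP synthase, and 13 to the thick filament, thin filament or Z-disc, while the rest, the larger part of the 199, belonged to none of these lists. Over whole lists, 53 of 62 measured ribosomal protein genes were bright, with a median level of 13.51, and so were 70 of 85 respiratory genes, with a median of 12.47. The respiratory list was added after the levels had been seen.

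Thick filament genes formed a bright group, as 9 of 13 measured members were bright and 12 lay above the reference, with a median level of 12.72. The essential light chain Myl4, the atrial and embryonic form, read 14.10, 14.01 and 14.01 on replicates 1 to 3. The ventricular regulatory light chain Myl2 read 13.98, 14.04 and 13.94. Their order turned between arrays, with Myl4 brighter on replicates 1 and 3 and Myl2 on replicate 2. Myl3, the ventricular essential light chain, read 13.64 ± 0.05 (SD, n = 3) at rank 59, and Ttn, the giant spring that spans the sarcomere, 13.32 ± 0.04. Mybpc3, the cardiac myosin binding protein C, had a mean of 11.52. The member that was not above the reference was Myom2, an M-band protein of mature fibres, at 7.01.

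Both cardiac myosin motors were bright. Myh6, the fast alpha heavy chain, read 12.90, 12.66 and 12.88 on replicates 1, 2 and 3 and ranked 303. Myh7, the slow beta heavy chain that dominates the fetal ventricle, read 12.69, 12.86 and 12.59 and ranked 356. Myh6 was the brighter on replicates 1 and 3 and Myh7 on replicate 2, and their means of 12.81 ± 0.13 and 12.72 ± 0.14 (SD, n = 3) overlapped. The non-muscle chain Myh10 followed at 11.86, and Myh7b had a mean of 9.30. Of the skeletal chains, Myh2 was just above the receptor reference at 7.81, and Myh1, Myh3, Myh4 and Myh8 were not above it on every array, at means of 7.21, 7.11, 7.20 and 7.82.

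The heavy chain genes Myh6, Myh7 and Myh7b each carry a microRNA in an intron. These microRNAs are shown so that their seeds, the part that pairs with targets, can be compared. The mature forms are from RefSeq on GRCm38.p6, 5′ to 3′, with the seed (bases 2 to 8) in capitals.
miR-208a-3p, within Myh6, chr14:54949072-54949093, minus strand: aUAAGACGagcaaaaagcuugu
miR-208b-3p, within Myh7, chr14:54975710-54975731, minus strand: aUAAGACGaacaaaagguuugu
miR-499-5p, within Myh7b, chr2:155622893-155622913, plus strand: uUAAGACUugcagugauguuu
The seeds of miR-208a and miR-208b are the same, UAAGACG, and that of miR-499 is UAAGACU. The array carries probe sets for hairpins, which do not measure the mature microRNA. The hairpin of Mir208a read 8.0, 7.82 and 6.10, above the reference on replicates 1 and 2 and under it on replicate 3. The hairpin of Mir499 had a mean of 6.31, and that of Mir208b was not measured. Neither the Mir208a nor the Mir499 hairpin was above the reference on every array, whereas 79 of 287 measured hairpins were. The hairpins of Mir1a-1 and Mir133a-2 were not above it either, with means of 4.19 and 5.37.

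Thin filament genes were bright in 14 of 16 cases and above the reference in 16 of 16, with a median level of 12.71. Behind Actc1, the actin Acta2, named for vascular smooth muscle, read 13.50 ± 0.04 (SD, n = 3) at rank 88, and the skeletal actin Acta1 12.19 ± 0.22. Among inhibitory troponins, the cardiac form Tnni3 read 13.34 ± 0.07 and the slow skeletal form Tnni1, known as the embryonic heart form, 12.31 ± 0.07. Both were bright on all 3 arrays. The calcium sensor Tnnc1 read 13.88 ± 0.04 at rank 26 and Tpm1, the main striated tropomyosin, 13.53 ± 0.02. The fast skeletal troponins were measured too, as Tnni2 read 11.39, 11.64 and 11.01 and Tnnt3 read 10.97, 10.38 and 11.12.

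**Figure D1:**
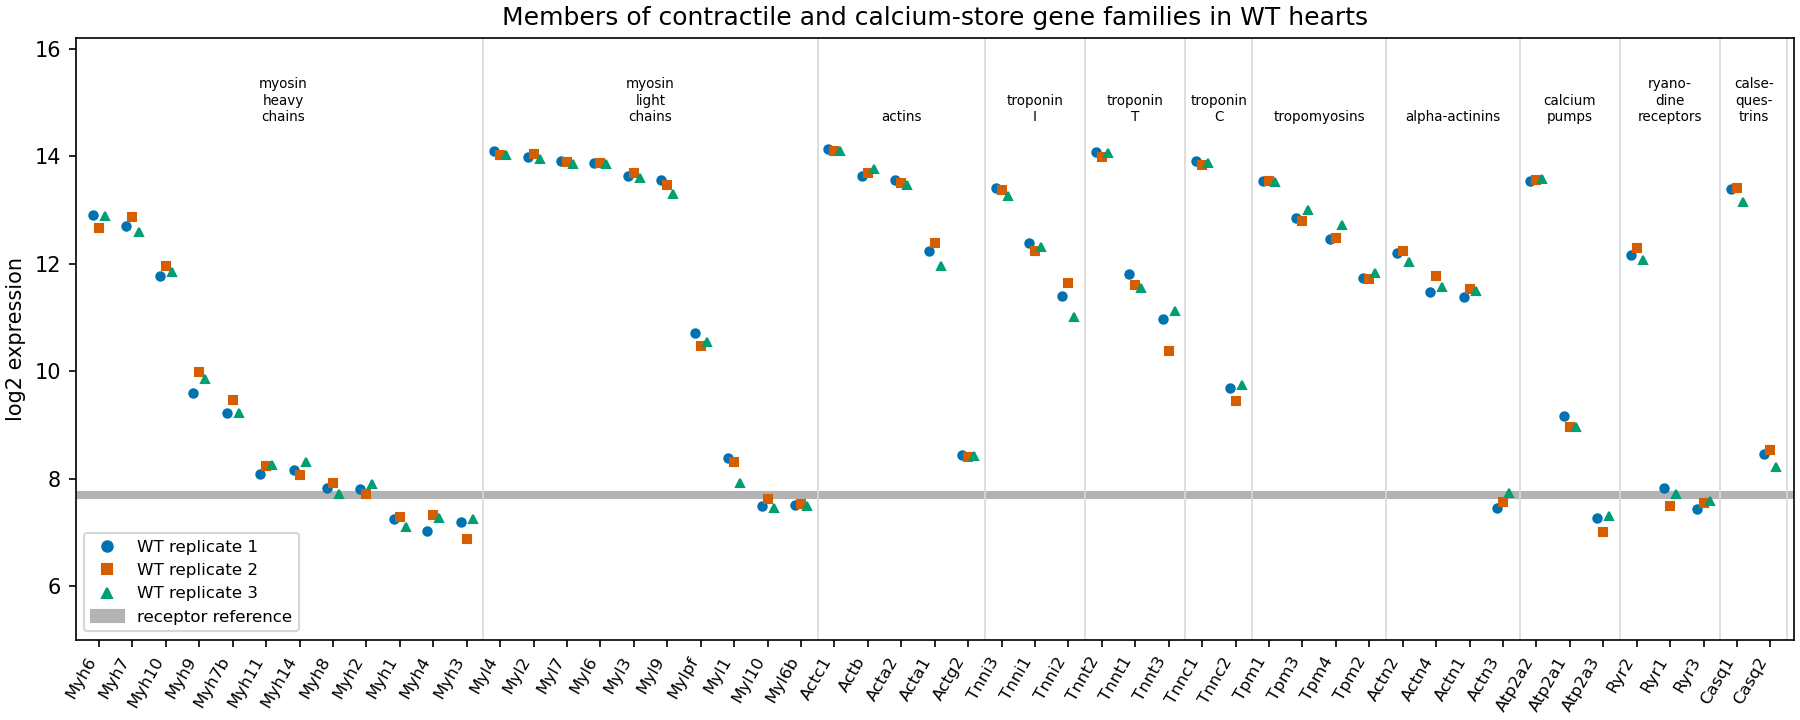
Members of contractile and calcium-store gene families on the x axis, grouped by family and ordered by mean, against log2 expression on the y axis; each symbol is 1 WT array and the grey band spans the receptor reference of the arrays. Myh6 and Myh7 overlap, Casq1 (mean 13.32) stands above Casq2 (mean 8.39) on every array, and Atp2a2 and Ryr2 stand above the other members of their families.

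The Z-disc, which ties thin filaments of neighbouring sarcomeres together, was less evenly bright, with 8 of 18 genes bright, 16 above the reference and a median level of 10.55. Its brightest members were Nexn at 13.14, the stretch-linked LIM protein Csrp3 at 13.11, the ankyrin repeat protein Ankrd1 at 13.03 and Pdlim5 at 12.86. Actn2, the muscle alpha-actinin, had a mean of 12.15. Myot and Xirp2 were not above the reference, with means of 7.37 and 6.49. Myoz2, a Z-disc protein that binds calcineurin, read 9.76, 10.10 and 8.67, so replicate 3 was more than 1 log2 unit under the others.

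Genes of calcium handling gave 9 of 17 bright members and a median of 11.20. Atp2a2, the pump that refills the sarcoplasmic reticulum, read 13.54, 13.56 and 13.57 and ranked 76. The release channel Ryr2 read 12.17 ± 0.11 (SD, n = 3). The sodium-calcium exchanger Slc8a1 read 12.52 ± 0.05, with a second probe set at 11.29. Skeletal and non-muscle relatives of the pump and the release channel were dim, as Atp2a1 read 9.02. Atp2a3, Ryr1 and Ryr3 were not above the reference. Pln, the brake on the pump, was uneven at 11.46, 11.86 and 11.05, and the atrial brake Sln was not above the reference, with a mean of 7.46.

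Calsequestrin, the calcium buffer of the store, was the family in which the skeletal name led. Casq1, known as the skeletal form, read 13.38, 13.41 and 13.15 on replicates 1, 2 and 3 and ranked 126. Casq2, the cardiac form of the adult, read 8.45, 8.53 and 8.21 and ranked 9712. The gap between the lowest value of Casq1 and the highest of Casq2 was far larger than the spread of either gene, and each was read by 1 probe set, so probe binding and RNA amount cannot be told apart for this pair.

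**Figure D2:**
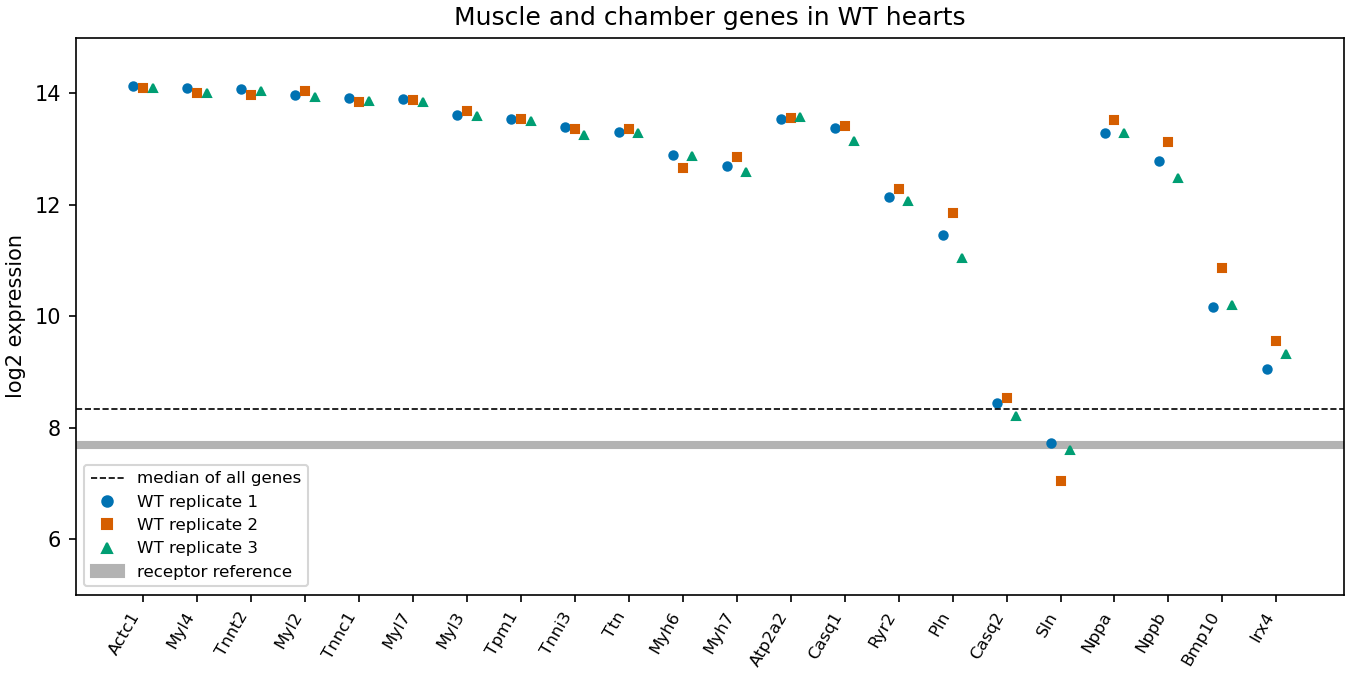
Log2 expression (y axis) of muscle, calcium and chamber genes (x axis) on each of the 3 WT arrays; the dashed line is the median of all genes (8.34) and the grey band the receptor reference. Contractile genes such as Actc1, Myl4 and Tnnt2 stand close together near the top of the range, while Pln, Nppb and Bmp10 spread more between arrays, with replicate 2 the highest for each.

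Of 14 measured ion channel and gap junction genes 1 was bright and 12 were above the reference, with a median of 9.41. The bright member was Gjc1, a connexin of the early heart and later of slow-conducting muscle, at 11.19 ± 0.04 (SD, n = 3). Gja1, the connexin of working muscle, read 10.93 ± 0.27, and Gja5, a connexin of chamber muscle, 10.16 ± 0.16. The pacemaker channel Hcn4 read 9.65, 9.74 and 9.95, and the potassium channel Kcna5 had a mean of 9.95.

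Chamber muscle genes had 5 of 12 bright members, 12 of 12 above the reference and a median of 10.72. Nppb, the neighbour of Nppa with 0 protein-coding gene starts between them, read 12.79, 13.13 and 12.49 at rank 305. Mest, an imprinted gene of fetal tissue that is also in this list, had a mean of 13.16, and the calcium sensor Vsnl1 10.90. Bmp10, the growth factor of trabecular muscle, read 10.16, 10.86 and 10.20, and Hey2, the repressor of the compact ventricle, 9.56, 10.47 and 9.83. Replicate 2 was the highest array for 8 of the 12 chamber genes, against 33.7% of all genes. Endocardial and epicardial genes, described further on, also ran high on replicate 2, and their part in this was not tested.

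Cardiac transcription factors had a median level above the 8.34 of all genes, though most were not bright. Of 30 measured, 5 were bright and 29 above the reference, with a median level of 10.01. Tead1, the partner of YAP in growing muscle, led at 12.67 ± 0.03 (SD, n = 3) and rank 377, although a second probe set of the gene read 11.62. Mef2c, which drives muscle genes in the early tube, read 11.56, 11.66 and 11.64 at rank 1221, and its relative Mef2a had a mean of 11.56. Mef2c led on replicates 1 and 3 and Mef2a on replicate 2. The Tbx20 repressor read 11.48, 11.09 and 11.09, and the homeodomain cofactors Meis1 and Meis2 had means of 11.24 and 11.16. The zinc finger factor Gata4 read 10.88, 11.05 and 11.02 at rank 2058, above Gata6 at 10.35 and Gata5 at 10.13. The 10 brightest also held Hey1, Smarcd3 and Hopx at 10.92, 10.88 and 10.55.

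Both factors removed in the study's mutants were measured at steady levels in WT hearts, and neither was bright. Tbx5, the T-box factor of the inflow and left ventricle, read 10.15, 10.13 and 9.90 at rank 4064. Nkx2-5, the homeodomain factor of all early heart muscle, read 9.33, 9.36 and 9.35 at rank 6125, an SD of 0.01. The bHLH factors Hand2 and Hand1 read 9.40 ± 0.02 and 9.35 ± 0.27 (SD, n = 3), and Isl1, which marks second heart field progenitors, 9.97, 9.53 and 9.53. Shox2, the factor of the sinus node, was the 1 of 30 that was not above the reference, at 7.54. Signal of a factor's probe set says nothing of its protein or of its activity.

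Across 345 measured members of transcription factor families, 10 were bright and 257 above the reference, with a median of 8.54. Outside the cardiac list, the brightest were the forkhead factor Foxn3 at 12.09, Tcf25 at 12.04, the TGF-beta mediator Smad2 at 11.68, the HLH inhibitor Id2 at 11.65 and the stress-response factor Atf4 at 11.35. Second heart field genes had 0 of 15 bright members and 11 above the reference, with a median of 8.36, close to the 8.34 of all genes.

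The matrix list was led by a few bright genes. Sparc, a collagen-binding glycoprotein, read 12.90, 12.77 and 12.85 at rank 287. Vcan, the large proteoglycan of cardiac jelly, read 12.68, 12.76 and 12.70 at rank 360, and the fibronectin gene Fn1 12.41, 12.85 and 12.73 at rank 378. Vcan was steady, whereas Fn1 was lowest on replicate 1. Has2, which makes the hyaluronan that swells the jelly, read 10.44 ± 0.19 (SD, n = 3), and Hapln1, which links hyaluronan to versican, 10.93 ± 0.20. In all, 5 of 25 matrix genes were bright and 20 above the reference, with a median of 9.67, while Lum, Dcn and Postn, matrix genes of later fibroblasts and valves, were not above it, at 5.74, 7.73 and 7.73.

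Of 25 measured collagens, 0 were bright, all 25 were above the reference, 17 were above the 99th percentile of receptor genes and the median was 8.77, with the basement membrane chain Col4a1 highest at 9.51 and Col5a2 lowest at 7.87. Col2a1, known from cartilage, read 9.32, and Col12a1 and Col26a1 read 9.25 and 9.24. Laminins, the other scaffold of basement membrane, had 1 bright member of 10 and a median of 8.66. It was Lamc1 at 11.53, followed by Lamb1 at 10.84, Lama4, the alpha chain of vessel walls, at 10.59, and Lamb2 at 9.24.

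**Figure D3:**
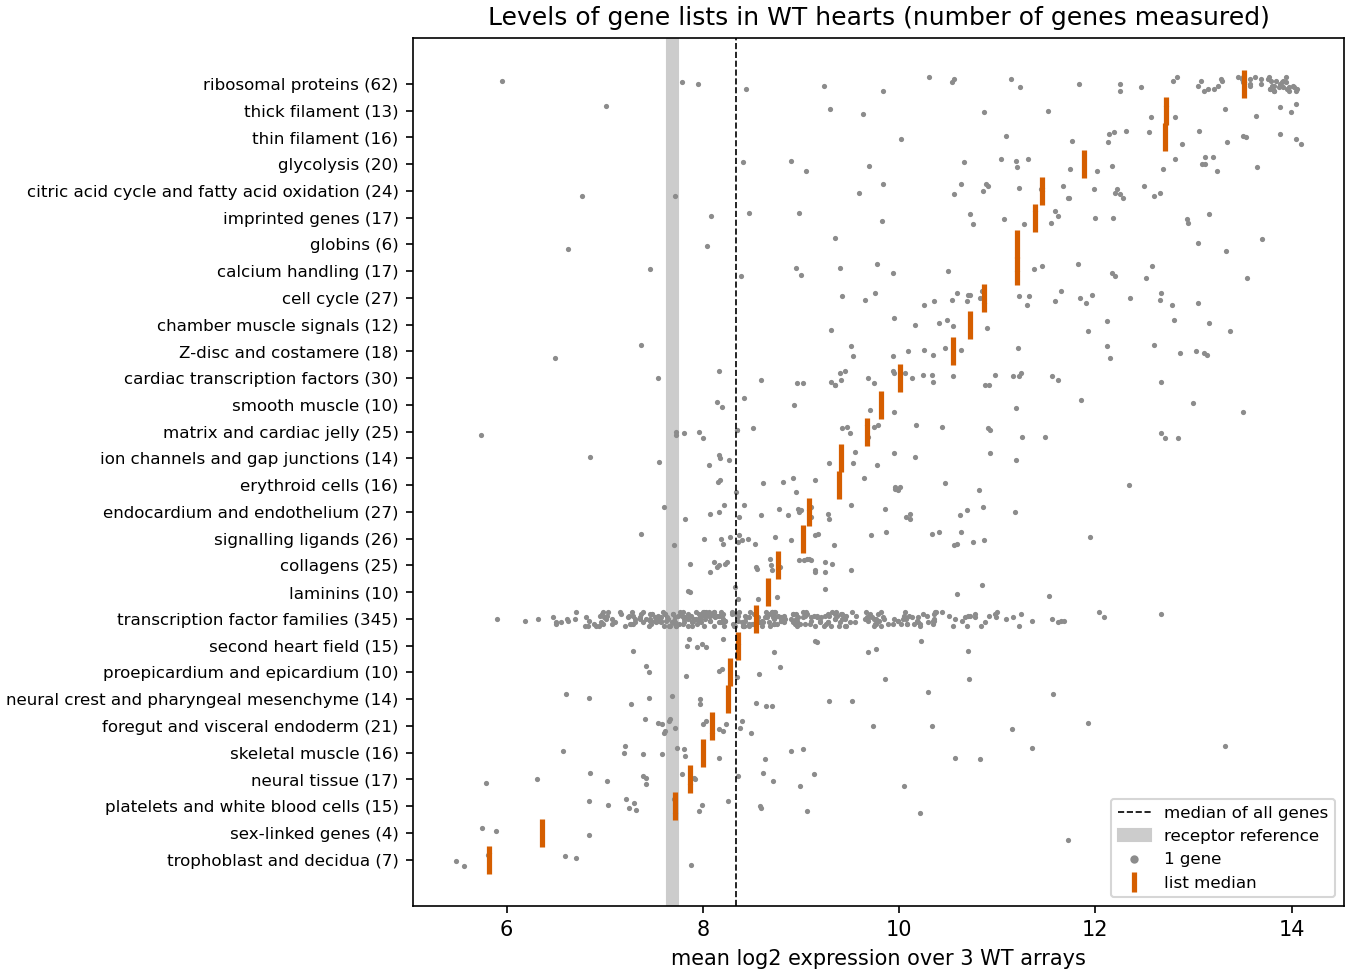
Mean log2 expression over the 3 WT arrays (x axis) of each measured gene (grey points) in each gene list shown (y axis). An orange mark is the list's median, the dashed line the median of all genes (8.34) and the grey band the receptor reference. The list of the respiratory chain and ATP synthase is not shown. Ribosomal proteins, thick filament and thin filament lie farthest to the right (medians 13.51, 12.72 and 12.71), whereas the medians of collagens (8.77), laminins (8.66) and second heart field genes (8.36) lie near that of all genes.

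Of 6 measured globin genes 3 were bright, and their levels differed between the arrays. Hbb-y, the embryonic beta-like globin, read 13.76, 13.35 and 14.00 on replicates 1, 2 and 3. Hba-x, the embryonic zeta globin, read 13.71, 12.56 and 13.74, and Hbb-bh1 13.69, 11.81 and 13.66. Replicate 2 was the lowest for each, by more than 1 log2 unit for Hba-x and Hbb-bh1. The remaining globins were dim, with means of 9.35 for Hbq1b, 8.04 for Hbb-bh2 and 6.63 for Hbq1a, the last not above the reference. The adult alpha globins share probe sets that cannot separate Hba-a1 from Hba-a2, and these read 13.69, 12.10 and 13.45, while the probe sets shared by the adult beta globins read 13.30, 11.21 and 12.73. Since these genes are near copies, the share of each in a signal is uncertain.

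Other genes of the red cell lineage were lowest on replicate 2 as well. Of 16 measured erythroid genes 1 was bright and 13 above the reference, with a median level of 9.39 and a median SD of 0.79 against 0.13 for all genes. All 16 were lowest on replicate 2, as 38.9% of all genes were, and the median deviation from the mean of the 3 arrays was 0.75 on replicate 1, -0.87 on replicate 2 and 0.14 on replicate 3. The deviation of replicate 2 was -0.54 without replicate 1 and -0.77 without replicate 3, each from the mean of the 2 arrays kept. For 15 of the 16 (93.8%) the order was replicate 1, then 3, then 2, an order that 17.6% of all genes had. An SD of at least 1 was reached by 7 of 16, and by 0.176% of all genes (35 of 19938). Slc4a1, the anion exchanger of the red cell membrane, read 12.12, 9.02 and 11.29, and Alas2, the first enzyme of erythroid haem synthesis, 11.08, 8.46 and 10.33. Rhag, of the Rhesus complex, read 10.22, 6.15 and 8.64, while the transferrin receptor Tfrc, which many dividing cells use, read 12.71, 11.93 and 12.39. In bulk samples fewer cells of a type and less RNA per cell cannot be told apart. Without replicate 2, 1 erythroid gene had an SD of at least 1.

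**Figure D4:**
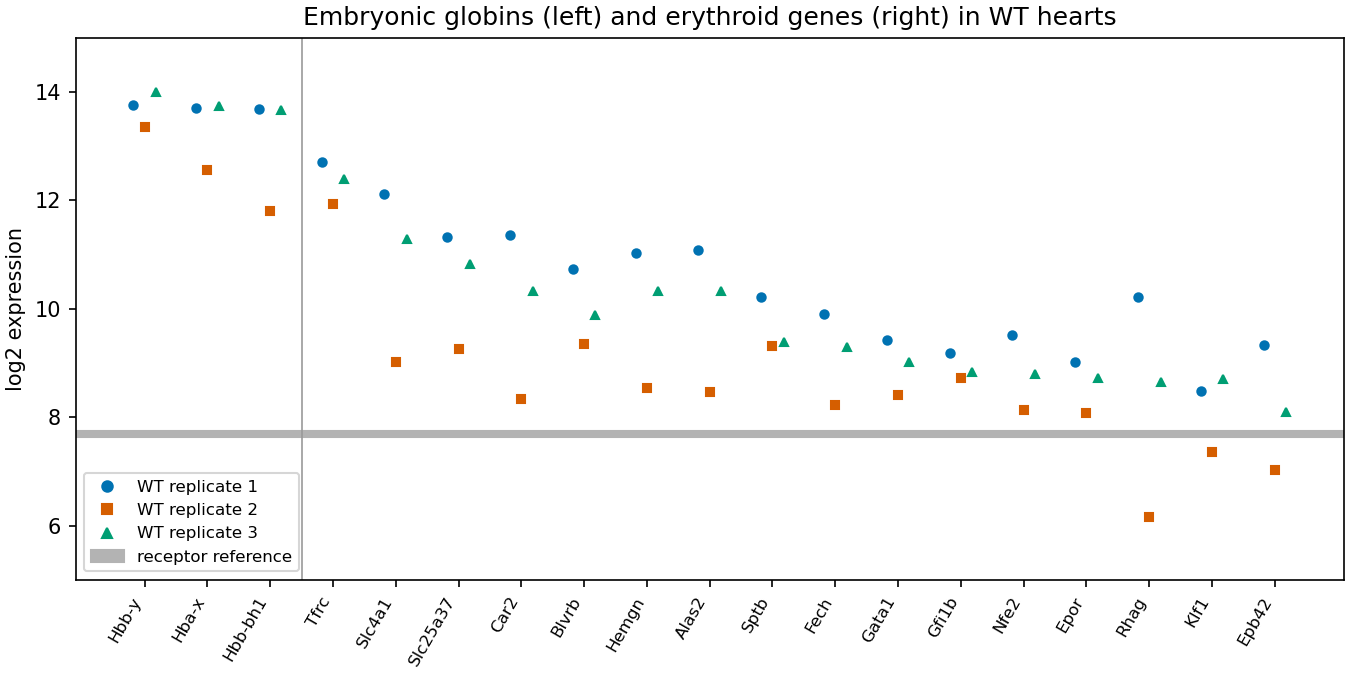
Log2 expression (y axis) of 3 embryonic globins (left of the line) and 16 erythroid genes (right of the line) on each of the 3 WT arrays; the grey band is the receptor reference. Replicate 2 is the lowest array for every gene shown, and replicate 1 is above replicate 3 for each erythroid gene but Klf1.

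Platelet and white cell genes were dim by comparison, with 0 of 15 bright, 6 above the reference and a median of 7.72. Pf4, the platelet chemokine, was the exception at 10.72, 9.40 and 10.50. It too was lowest on replicate 2, as were 13 of the 15, against 38.9% of all genes. Of the white cell markers, Csf1r, Ptprc, Spi1 and Tyrobp were not above the reference on all arrays, with means of 7.22, 7.30, 7.32 and 7.96. Among further platelet markers Gp9 was above it at 7.99 and Ppbp was not, at 6.84. The remaining members above the reference are not named here, so the named markers do not stand for the whole list.

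Endocardium, the inner lining, ran the other way between arrays. Of 27 measured endothelial genes 0 were bright and 26 above the reference, with a median of 9.08 and median deviations of -0.26, 0.21 and 0.05 on replicates 1, 2 and 3. Replicate 2 was the highest array for 17 of the 27, against 33.7% of all genes. Npr3, the natriuretic peptide receptor of endocardium, read 10.81, 11.52 and 11.19, and the cadherin Cdh5 10.50, 11.08 and 11.00. Pecam1 read 9.73, 10.52 and 10.07, and Tek and Emcn had means of 10.69 and 10.62. Nfatc1, the factor of valve endocardium, was at 8.97. Npr3, Cdh5 and Pecam1 were each lowest on replicate 1.

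Foregut, epicardial, neural crest and neural markers were above the reference at shares near the 62.3% of all genes. At this reference the counts therefore set none of these tissues apart. Of 21 foregut and visceral endoderm genes 1 was bright and 12 above the reference, with a median of 8.09. The 99th percentile of receptor genes was passed by 8684 of all 19938 genes. It was passed by 4 of 21 foregut, 2 of 10 epicardial, 7 of 14 neural crest and 3 of 17 neural genes. Only the neural crest share was not under that of all genes. The keratins Krt8, Krt19 and Krt18, which are not confined to endoderm, had means of 11.92, 11.15 and 10.34, and Hhex 9.73. Of the 4 defining endoderm markers, Foxa2 at 8.03 was above the reference and Epcam and Afp, at 7.67 and 7.58, were not, while Ttr read 7.85, 8.04 and 9.25, highest on replicate 3. Epicardial genes had 5 of 10 members above the reference and median deviations of -0.32, 0.46 and 0.02. Of the 10, 7 were highest on replicate 2, against 33.7% of all genes. Wt1 read 9.70, 10.33 and 9.56 and Tcf21 read 7.83, 9.51 and 9.04, and Podxl and Upk3b had means of 10.71 and 8.57.

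Neural crest and pharyngeal mesenchyme genes had 1 bright member of 14, the retinoic acid binding protein Crabp1 at 11.20, 11.40 and 12.11, and 9 above the reference. Sox10 was above it at 8.64, and Foxd3 and Tfap2a were not. Among 17 neural genes 9 were above the reference, Tubb3 at 10.05 and Sox1 at 8.99 among them, while Pax6 and Neurod1 were not, at 7.42 and 5.79. Of 7 measured trophoblast and decidua genes 1 was above the reference, and Tpbpa read 5.48. The part of these neighbours in the levels of other lists was not tested.

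Of 16 skeletal muscle genes 9 were above the reference and 1, Casq1, was bright, shares near or under the 62.3% and 8.92% of all genes. In this list the fast contractile genes Tnni2, Tnnt3 and the light chain Mylpf were among the brightest, Mylpf at 10.57. Of the skeletal lineage factors, Myod1 was above the reference at 8.63 and Myog and Myf5 were not. Smooth muscle genes had 4 of 10 bright and 10 of 10 above the reference, with a median of 9.82. Besides Acta2 these were led by the calponin Cnn1 at 13.19, 12.80 and 12.99, Tagln at 11.85 and Cald1 at 11.19.

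Among 26 secreted ligands 1 was bright and 23 above the reference, with a median of 9.02. The bright one was Bmp5, a bone morphogenetic protein of the early tube, at 11.99, 11.97 and 11.89 and rank 869. Tgfb2, Vegfa and Bmp2 followed with means of 10.87, 10.63 and 10.56, and Bmp4 had a mean of 10.34. Cell cycle genes were bright in 12 of 27 cases and above the reference in 27 of 27, with a median of 10.87. The replication clamp Pcna had a mean of 13.05, Cdk4 12.78 and Ccnd2 12.67, with the other D cyclins, Ccnd1 and Ccnd3, at 10.25 and 9.42. Top2a read 12.66 on its brightest probe set and 5.39 on its other, so its level is uncertain.

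Genes of glucose breakdown were bright in 13 of 20 cases, all 20 lay above the reference and the median was 11.88. Of the 20, 15 were highest on replicate 2, against 33.7% of all genes. Gapdh and Eno1, also listed, had no probe set with 1 gene symbol and were not measured. The brightest probe set that Gapdh shares with other symbols read 14.20 ± 0.03. Among the genes measured, Pgk1 read 13.65 ± 0.05 (SD, n = 3). Aldoa, Ldha and the glucose transporter Slc2a1 had means of 13.20, 13.12 and 13.12, and Hk1 read 13.24 with a second probe set at 10.89. The forms known from the adult heart gave less signal, as Ldhb read 11.19 and the insulin-sensitive transporter Slc2a4 9.05 ± 0.23. A second probe set of Ldhb read 9.61. The muscle forms Pgam2 and Eno3 were bright too, at 12.81 and 12.17. Pgam2 was above Pgam1, which read 12.02 on its brightest probe set and 10.91 on its dimmest. Genes of the citric acid cycle and fatty acid oxidation had 15 of 24 bright and a median of 11.46. Mdh2, Idh3g, Idh2 and Cs led at 12.66, 12.60, 12.50 and 12.28. Cpt1a, a form of the gate for fatty acids into mitochondria, and its regulator Ppara were not above the reference, at 7.72 and 6.77. The other 22 measured members of the list were above it.

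In the creatine kinase and cytochrome oxidase families the form named for muscle or heart gave less signal than a widely used form. Pgam2 and Pgam1 had the other order. Among creatine kinases the brain form Ckb read 11.01 ± 0.24 (SD, n = 3) and the muscle form Ckm 8.90 ± 0.09, and the mitochondrial Ckmt2 was not above the reference at 7.36. In cytochrome oxidase the widely used forms were the brighter in each case, Cox6a1 at 13.41 over Cox6a2 at 11.58, Cox7a2 at 13.10 over Cox7a1 at 12.60, and Cox8a at 11.90 over Cox8b. Cox8b was uneven, at 8.13, 9.87 and 8.37. Of the fatty acid binding proteins, Fabp5 and Fabp3 lay together at 12.02 and 11.99. Of 32 families examined, 26 had the same brightest measured member on all 3 arrays and 6 did not. The 6 were the myosin heavy and light chains, calsarcins, MEF2 factors, Iroquois factors and fatty acid binding proteins, so no leader is named for these.

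Imprinted genes, which are read from the maternal or the paternal copy alone, were often bright. They also held the most uneven of the genes ranked by SD. Of 17 measured, 8 were bright and 16 above the reference, with a median of 11.39, and 5 of 17 had an SD of at least 1 against 0.176% of all genes. Grb10, an inhibitor of growth factor signalling, read 8.56, 8.29 and 12.65 on replicates 1, 2 and 3, with an SD of 2.44. That was the largest SD among genes above the reference on any array, without symbols of small RNAs, clones or predicted genes. Igf2, the fetal growth factor, read 9.57, 9.76 and 12.93, and Igf2r, the receptor that clears it, 10.30, 10.67 and 12.84. Zim1 read 7.06, 7.11 and 10.07. These 4 genes were high on replicate 3 alone. Cdkn1c, a brake on the cell cycle, read 12.74, 9.37 and 12.66 and was low on replicate 2 alone. Without replicate 3, 1 imprinted gene had an SD of at least 1, and 59 of all genes did.

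Other imprinted genes did not share these steps. Mest read 12.90, 13.46 and 13.13, Peg10 12.60, 13.29 and 12.93, and Plagl1 11.94, 12.51 and 12.08, all with replicate 2 the highest. Of the 8 least even genes in that ranking by SD, Grb10, Cdkn1c, Igf2 and Zim1 were imprinted and Rhag, Slc4a1, Car2 and Kel were of the red cell. Car2, carbonic anhydrase, read 11.37, 8.33 and 10.33, and the blood group gene Kel 10.26, 7.38 and 9.39. Sex-linked genes also set replicate 3 apart, as Eif2s3y of the Y chromosome read 5.07, 5.26 and 6.92 and Uty 5.38, 5.61 and 6.67, all under the receptor reference, while Xist, made from the inactive X, read 11.78, 11.87 and 11.50. The part of sex-linked differences in the steps of imprinted genes was not tested.

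**Figure D5:**
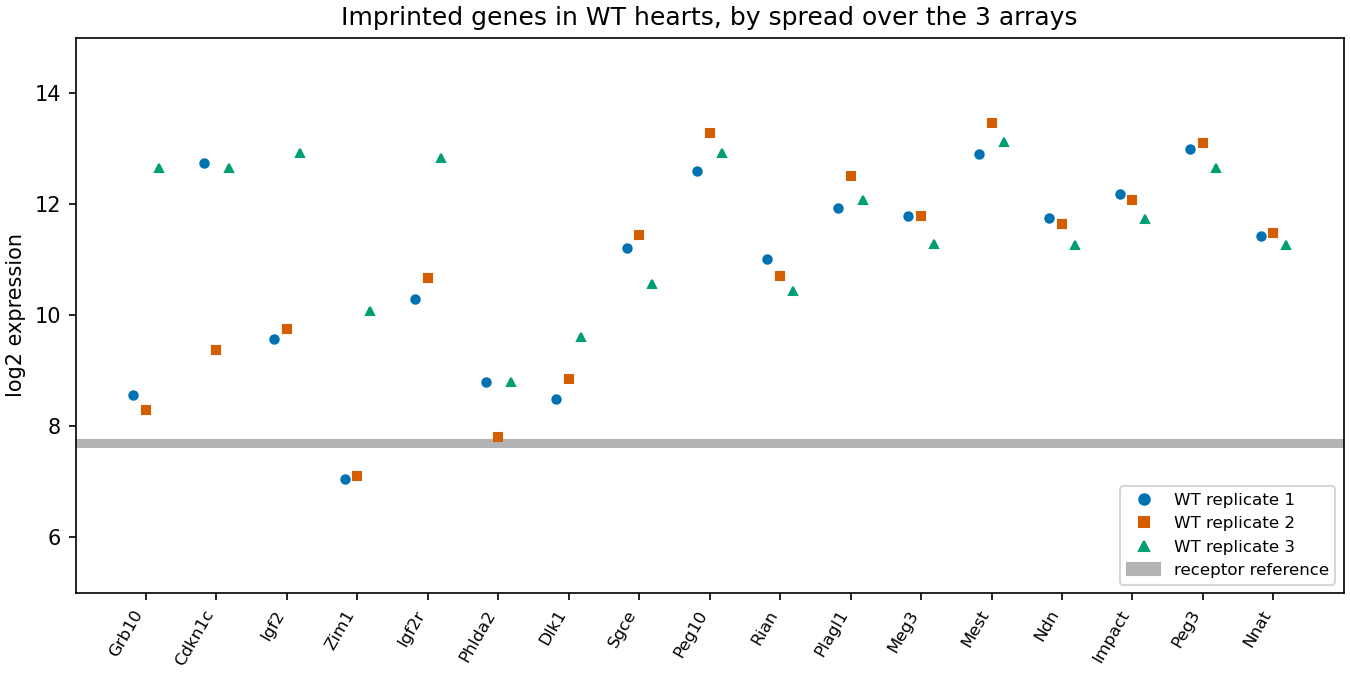
Log2 expression (y axis) of 17 imprinted genes on each WT array, ordered from the least to the most even (x axis); the grey band is the receptor reference. Grb10, Igf2, Zim1 and Igf2r are high on replicate 3 alone and Cdkn1c is low on replicate 2 alone, whereas the arrays lie close together for genes such as Peg3 and Nnat.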

How the data were processed

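The table the authors deposited gives 1 log2 value per probe set and array, from Affymetrix arrays of RNA isolated with a PicoPure kit and amplified with NuGEN reagents, per the labels' protocols. How probes were summarized and normalized is not given in the sources, and no further normalization was applied. Values ran from 3.21 to 14.70. The 3 WT arrays were described, and 0 pairs of them held identical values. The other 9 served only an alternative choice of probe sets. For arrays, their number limits the precision.

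Of 35557 probe sets, 21789 carry 1 gene symbol in the platform annotation, 1621 several and 12147 none listed. The first kind was used, and 21698 matched RefSeq genes by Entrez number. For 999 genes with several probe sets the brightest mean was kept, and in 442 the probe sets differed by over 1 log2 unit.

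Ranks, means and SDs were computed with Python 3.11.15, pandas 2.3.3 and numpy 2.4.6, the code was tested on simulated data, and plots used matplotlib 3.10.9. The members and the 31 gene lists (1005 entries) were chosen with earlier results of these data known. Named genes are the 4 tissue markers, the 20 brightest genes and up to 4 of the brightest of each list (10 for transcription factors). Also named are members of gene families, the cell type markers, list members not above the reference where few, and the 8 genes of largest SD. Genes ranked by SD were above the reference on any array, without symbols of small RNAs, clones or predicted genes. Further members were picked for their role with their values known. The alternatives concerned the probe set kept for a gene (the median of its probe sets, or the brightest over all 12 arrays), probe sets of several genes, the brightness threshold and its condition on every array, the reference, the ranked genes, centring or quantile normalization, and each array left out.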

Additional observations from a re-analysis of the deposited data

How the results depend on the processing

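Of 248 values recomputed for 33 results, 226 stayed within 1.5 times the main value or within the spread, 22 moved and 0 reversed. No paired analysis was possible because the description has 1 group and no contrast. Over the 3 fits that leave out 1 array each, genes with an SD of at least 1 numbered from 29 to 59 (main 35). Imprinted genes among them numbered from 1 to 5 (main 5) and erythroid genes from 1 to 8 (main 7). In the fits that kept replicate 2, its erythroid median deviation ran from -0.77 to -0.54 (main -0.87). Those deviations are from a mean of 2 arrays and the main one from a mean of 3, so their sizes are not directly comparable. With probe sets of several genes included, 9 globins were bright (main 3), and 3 epicardial (main 5) and 0 trophoblast genes (main 1) were above the reference. With ranks over genes above the reference, 1113 genes were bright in all (main 1778), with 1 cardiac transcription factor (main 5), 3 matrix genes (main 5) and 4 transcription factor family members (main 10). At the brightest 5%, 881 genes were bright, with 5 calcium handling genes (main 9), 1 cardiac transcription factor, 3 matrix genes, 8 citric acid cycle and fatty acid genes (main 15), 6 cell cycle genes (main 12) and 3 transcription factor family members. With the 99th percentile of receptor genes as reference, 4 foregut (main 12), 2 epicardial (main 5), 3 neural (main 9) and 0 trophoblast genes were above it. Over genes above the reference alone, 19 had an SD of at least 1. Stricter thresholds lower counts by construction, and for the other changes the cause was not tested.

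Calls near the receptor reference are the least secure, since no detection call was used. Signals at the top of the range lie within 1.20 log2 units for 199 genes, so ranks there rest on small differences. The list counts for muscle filaments, ribosomal proteins and glycolysis did not move by over 1.5 times under the alternatives run.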
